A study of Mus musculus with 18 samples.

Results

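The type I interferon-stimulated genes described here are 42 named genes whose transcription rises when a cell senses type I interferon. They were taken by symbol from the deposited count table of liver immune cells, where all 42 were found among 48440 gene identifiers. The mice were wild-type C57BL/6J, purchased when 7 weeks old, and bore liver tumours driven by Ras and Myc, oncogenes delivered to hepatocytes by hydrodynamic tail vein injection. Untreated mice were set against mice given 4 mg/kg poly(I:C), which mimics viral double-stranded RNA, together with 200 µg anti-PD-L1, a checkpoint-blocking antibody, every other day for 6 doses. Anti-VEGF-A is also listed in the protocol but is not part of the treated libraries' labels. The time between the last dose and the collection of the cells is not given in the labels. Sorting of CD45+ cells gave the fractions labelled CD3+CD8+ (CD8 T cells by the gate), CD3+CD8- (other T cells) and CD3-CD8- (cells outside both), and each has 3 libraries per treatment group, 18 in all. Libraries are named below by the number in their library name, and nothing in the labels says whether a number stands for an animal, so p-values measure the spread between these libraries. The letters before the number differ as well (CV for untreated replicate 6 and PL for treated replicate 19, C or P for the rest), with no meaning given, and treated CD3+CD8- replicate 11 carries another number in its title than in its library name.

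Type I interferons bind the receptor chains IFNAR1 and IFNAR2, whose kinases JAK1 and TYK2 phosphorylate STAT2. STAT2 and IRF9 are parts of the complex ISGF3, which binds the interferon-stimulated response element in promoters, and IRF7, itself an interferon-stimulated gene, drives further interferon production. Poly(I:C) is read by the endosomal receptor TLR3 and the cytoplasmic sensor MDA5, and liver macrophages, dendritic cells and lymphocytes all respond to the interferon that follows.

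The response element was searched in the promoters as the letters GAAANNGAAA on both strands, in RefSeq windows of 300 bases (250 before to 50 after a start, build GRCm38.p6). Windows were found for 32 of the 42 genes, and 13 of these 32 (40.6%) held the letters, against 1079 of 27025 genes with a window (3.99%). The 13 were Bst2, Ddx60, Ifit1, Ifit3, Ifit3b, Ifitm3, Isg15, Oas1a, Oas1g, Oas3, Rsad2, Stat2 and Trim30a. The 110 bases before the start are printed for some of the genes, picked by hand, and not all of these were called below. Each is read 5′ to 3′ on the gene's strand with the matching letters in capitals. The first 5 hold a match. Irf7 and Ifi44, which changed in opposite directions, do not hold these exact letters in this window.
Isg15 (chr4:156200819-156200928, minus strand): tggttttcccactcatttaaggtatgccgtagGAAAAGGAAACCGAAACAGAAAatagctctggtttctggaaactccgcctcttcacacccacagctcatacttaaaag
Ifit1 (chr19:34640779-34640888, plus strand): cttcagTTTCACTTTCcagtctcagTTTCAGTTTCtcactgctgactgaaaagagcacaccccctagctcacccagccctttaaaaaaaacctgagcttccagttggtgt
Oas1a (chr5:120907526-120907635, minus strand): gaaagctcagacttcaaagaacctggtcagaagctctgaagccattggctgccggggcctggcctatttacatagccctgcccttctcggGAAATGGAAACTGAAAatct
Oas1g (chr5:120887614-120887723, minus strand): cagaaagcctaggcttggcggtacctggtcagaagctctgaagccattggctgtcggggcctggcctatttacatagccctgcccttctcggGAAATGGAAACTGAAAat
Ddx60 (chr8:61927977-61928086, plus strand): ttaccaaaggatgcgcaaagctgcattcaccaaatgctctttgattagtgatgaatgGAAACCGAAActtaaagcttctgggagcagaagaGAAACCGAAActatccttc
Irf7 (chr7:141266425-141266534, minus strand): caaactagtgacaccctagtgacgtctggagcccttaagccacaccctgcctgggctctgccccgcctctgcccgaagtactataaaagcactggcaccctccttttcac
Ifi44 (chr3:151749911-151750020, minus strand): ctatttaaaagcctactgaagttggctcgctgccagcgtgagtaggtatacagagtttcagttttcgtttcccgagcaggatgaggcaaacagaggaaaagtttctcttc
Isg15 carries 3 overlapping matches, Oas1a and its neighbour Oas1g 2 overlapping ones close before the start, and Ddx60 2 separate ones. Under treatment in CD3-CD8- cells, described below, 5 genes that rose have a window and 1 of them (Ddx60) holds the letters, against 0 of 4 that fell and 12 of 23 that were not called. A match is a description of the letters and not a bound site. A gene without a match may still carry a response element in other letters or outside the window. The printed Ifi44 stretch holds TTTC repeated at other gaps, which the exact letters miss.

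Total counts ran from 1829155 to 28233682 per library. In 3 libraries, untreated CD3+CD8+ replicates 1 and 18 and treated CD3+CD8- replicate 2, 5 ribosomal loci took 79.7 to 87.0% of the counts, against 0.348 to 2.26% in the rest; counts outside these loci then ran from 486461 to 27971673, and a count of 0 allows up to 0.0740 to 5.39 CPM (counts scaled to the library total), counting error only. Sort markers did not follow the labels throughout. Untreated CD3+CD8- replicate 6 had Cd8a at 628 CPM where the other libraries of that label had 4.33 to 19.7 CPM. The libraries labelled CD3-CD8- held Cd8a at 59.9 to 294 CPM untreated and 553 to 1049 CPM treated. Treated CD3-CD8- libraries also held Cd3g at 1310 to 1874, Cd3d at 488 to 712 and Cd3e at 175 to 332 CPM. In treated CD3+CD8+ libraries these 3 genes stood at 897 to 1589, 466 to 692 and 249 to 383 CPM. The fractions are therefore called by their labels, and in such mixtures fewer cells of a type and less RNA per cell cannot be told apart.

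Averaged over the 42 genes on the log2(CPM + 1) scale, treated and untreated cells differed by less than the larger SD of the groups compared, in each fraction. The mean of log2(CPM + 1) was 5.08 ± 0.10 (SD, n = 3) in untreated and 4.94 ± 0.20 in treated CD3+CD8+ libraries. It was 5.58 ± 0.30 and 5.35 ± 0.16 in CD3+CD8- libraries, and 5.19 ± 0.11 and 5.25 ± 0.18 in CD3-CD8- libraries. Treated and untreated libraries overlapped in every fraction, and these means carry no test. In log2(FPKM + 1) the difference in CD3+CD8+ cells turned from -0.14 to 1.45 and that in CD3+CD8- cells went from -0.22 to -0.84; the libraries rich in ribosomal counts stood at 1.57 to 2.17 on that scale, against 3.72 to 4.62 for the others. The widest spread lay within untreated CD3+CD8- cells, where replicate 18 stood at 5.91 and replicates 5 and 6 at 5.35 and 5.47. That library held the highest level among all 18 of 12 of the 42 genes: all 4 IFIT genes, Oasl1, Oasl2, Rsad2, Ifi204, Trim30a, Parp9, Rtp4 and Ddx60. Treated CD3+CD8+ replicate 19, the lowest at 4.70, held the lowest level of 9 genes.

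**Figure D1:**
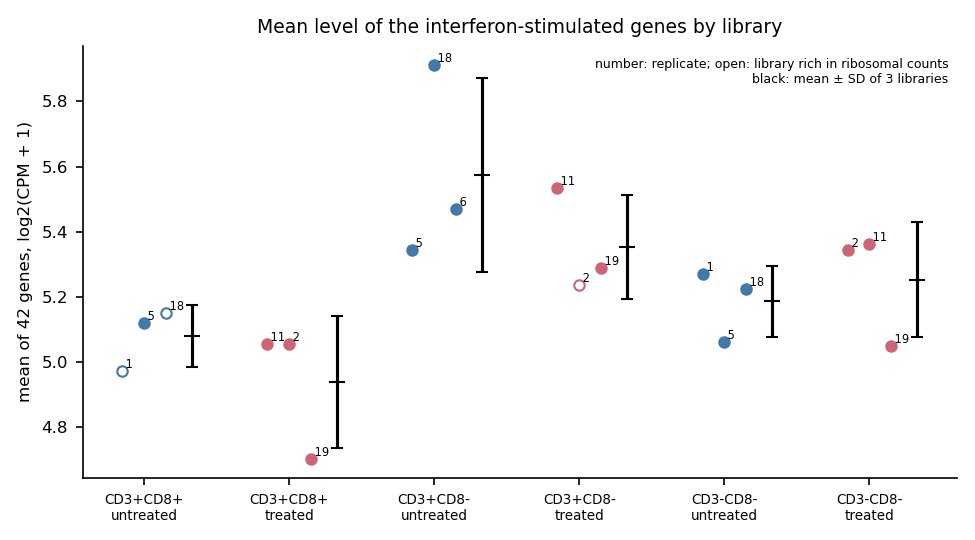
Each point is 1 library, at the mean of log2(CPM + 1) over the 42 genes on the vertical axis, by group on the horizontal axis; open points mark the 3 libraries rich in ribosomal counts, and black bars the mean ± SD of 3 libraries. Untreated CD3+CD8- replicate 18 is the highest at 5.91, and treated and untreated points overlap within every fraction.

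**Figure D2:**
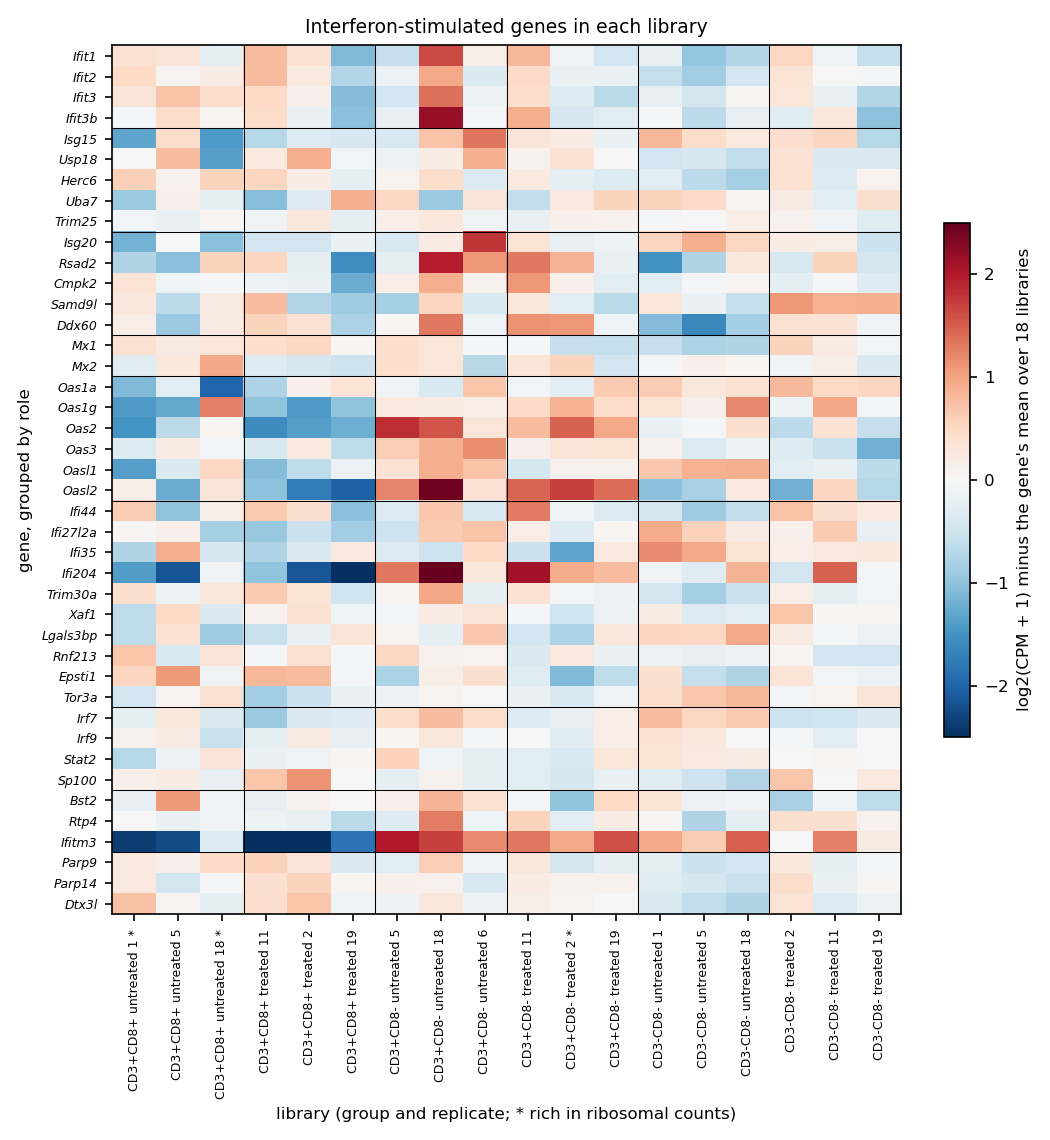
Colour shows log2(CPM + 1) of each gene (rows, grouped by role) in each library (columns) minus the gene's mean over 18 libraries, with colours capped at 2.5 either way. Ifitm3 is low in all 6 CD3+CD8+ libraries, and untreated CD3+CD8- replicate 18 holds the highest level of 12 genes.

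In CD3-CD8- cells 6 of the genes rose and 5 fell under treatment. The risers were Ddx60, Ifi44, Samd9l, Mx1, Sp100 and Ifit2, and those that fell were Oasl1, Irf7, Lgals3bp, Ifi35 and Tor3a. The 11 called make 26.2% of the 42 tested; of all 13781 genes tested, 10.2% were higher and 15.3% lower by the same rule (edgeR quasi-likelihood F-test, Benjamini-Hochberg adjusted p below 0.05), 25.6% together, so the share among these genes is close to the background. The median log2 fold change was -0.07 over the 42 genes and -0.06 over all genes, with 20 of 42 above 0.

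All 11 calls ended when the fit took the base composition of the transcripts into account. Genes that rose had transcripts with 38.8 to 47.3% G and C, and genes that fell 51.0 to 56.3%. Of the 22 genes under 50% G and C, 18 had a fold change above 0, against 2 of the 20 at or over 50%. Across the 42 genes the log2 fold change and the G and C content had Pearson's r = -0.85 and Spearman's rho = -0.87; across 13749 genes Pearson's r was -0.56. In CD3+CD8- cells Pearson's r was -0.36 over the 42 genes and -0.27 over all genes. Genes are not independent replicates, and they share the 6 libraries. With a smooth of each library's log2 CPM on G and C content as an offset, 0 of the 42 genes were called and 3.69% of all genes were, 269 higher and 240 lower in place of 1407 and 2115. Pearson's r with G and C content was then 0.0015 over all genes but still -0.45 over the 42 genes. The smallest adjusted p was then that of Mx1 (0.82 ± 0.18 (SE), edgeR adjusted p = 0.0538), followed by Irf7 (-0.60 ± 0.14 (SE), edgeR adjusted p = 0.0605). The sign of all 11 fold changes was kept. Changes named below as a rise or a fall are those of the fit without this offset.

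**Figure D3:**
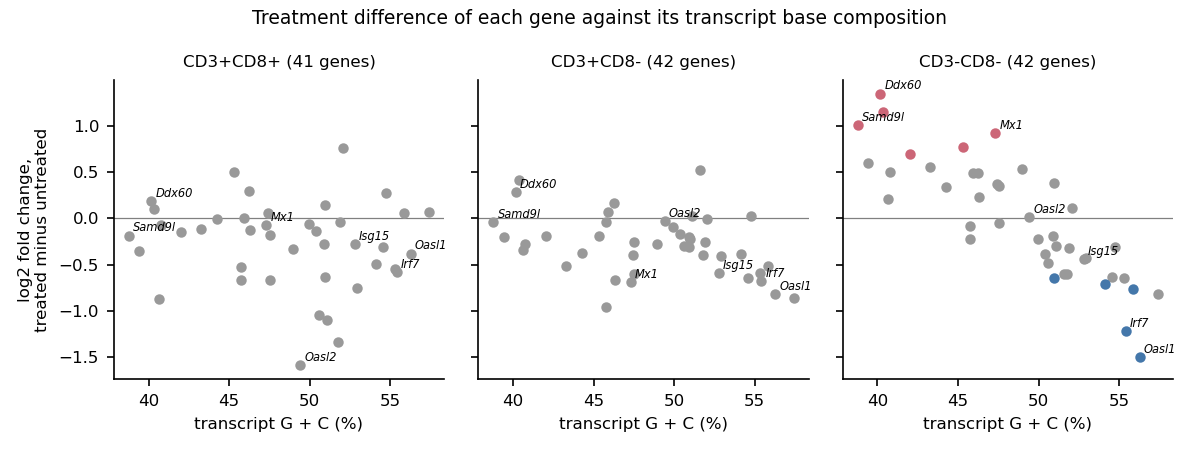
Each point is 1 gene, with the G and C content of its longest transcript in percent on the horizontal axis and the log2 fold change, treated minus untreated, on the vertical axis, for each sorted fraction; red points were higher and blue points lower at an adjusted p below 0.05, and grey points were not called. The points fall from upper left to lower right in CD3-CD8- cells (Pearson's r = -0.85 over 42 genes) and spread without such a slope in CD3+CD8+ cells (r = -0.13 over 41 genes), with CD3+CD8- cells between them (r = -0.36 over 42 genes).

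The cell mixture of the fraction moved as well. Summed markers of CD8 T cells (5 genes, all 5 called higher) ran from 381 to 1148 CPM in untreated and 2746 to 4429 CPM in treated libraries. B cell markers (9 genes, 7 lower) ran from 2859 to 4030 and 1766 to 2578 CPM, and Kupffer cell markers (8 genes, 5 lower) from 384 to 1121 and 99.3 to 454 CPM. Neutrophil markers (10 genes, 4 higher) ran from 144 to 868 and 631 to 20789 CPM, markers of plasmacytoid dendritic cells, a main source of interferon (9 genes, 1 higher and 1 lower), from 278 to 406 and 121 to 246 CPM. Of CD4 T cell markers 3 of 6 were higher, and these were the 3 CD3 genes that the CD8 T cell list also holds. Cd4, Cd40lg and Foxp3 were not called higher. NK cell markers (7 genes, 2 higher and 1 lower) ran from 1367 to 1846 CPM untreated and 3251 to 4463 CPM treated. Gzma, 1 of these 7, ran from 722 to 1200 and 2802 to 3983 CPM. Of monocyte markers 1 of 7 was higher, and of plasma cell and erythroid markers 2 of 5 each were lower. No gene of these lists was at 0 in all libraries of either group, and no marker gene was called in the T cell fractions. The part of these mixtures in the fold changes was not tested.

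Among the signalling factors, Irf7 fell the most. In CD3-CD8- cells, values are given for untreated replicates 1, 5 and 18 and then treated replicates 2, 11 and 19. Irf7 stood at 68.5, 57.1 and 62.9 CPM untreated and 27.2, 27.8 and 30.6 CPM treated. The groups were far apart (log2 fold change -1.22 ± 0.13 (SE), edgeR adjusted p = 0.00766), and this call held with each library left out in turn. Irf9, the DNA-binding part of ISGF3, stood at 88.4, 83.2 and 68.6 CPM untreated and 66.5, 57.5 and 69.4 CPM treated, and its STAT partner Stat2 at 50.4, 47.1 and 46.3 CPM untreated and 40.1, 42.1 and 39.5 CPM treated. Neither was called (-0.38 ± 0.13 (SE), edgeR adjusted p = 0.0666 and -0.32 ± 0.12 (SE), edgeR adjusted p = 0.0891), although treated libraries lay below untreated ones for Stat2. Sp100, a protein of PML nuclear bodies, rose (log2 fold change 0.77 ± 0.22 (SE), edgeR adjusted p = 0.0376).

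None of the 5 genes of the ISG15 system was called. ISG15 is a ubiquitin-like protein that is joined to other proteins, with UBA7 as its activating enzyme, HERC6 as the mouse ligase and USP18 as the enzyme that removes it. Isg15 stood at 29.8, 22.7 and 19.6 CPM untreated and 22.3, 24.0 and 9.63 CPM treated, and Usp18 at 14.2, 14.9 and 12.9 CPM untreated and 26.2, 15.6 and 15.5 CPM treated. The log2 fold changes were -0.44 ± 0.34 (SE) for Isg15 and 0.39 ± 0.24 for Usp18, and treated libraries overlapped with untreated ones for Isg15 but not for Usp18, where the gap lay between 14.9 and 15.5 CPM.

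The IFIT genes, whose proteins bind foreign RNA, split: Ifit2 rose (log2 fold change 0.69 ± 0.20 (SE), edgeR adjusted p = 0.0383) and the other 3 were not called. Ifit1 stood at 30.1, 16.7 and 19.9 CPM untreated and 48.7, 31.2 and 21.9 CPM treated and Ifit3 at 33.5, 27.4 and 39.9 CPM untreated and 46.9, 33.2 and 22.6 CPM treated, overlapping in both cases. Ifit3 and Ifit3b are near copies whose reads may have been shared or dropped in the counting.

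In the OAS family, whose enzymes make the short oligoadenylates that activate RNase L, Oasl1 fell and the other 5 were not called. Oasl1, an OAS-like protein that lacks the enzyme activity and restrains Irf7 translation, stood at 8.10, 9.42 and 9.67 CPM untreated and 3.74, 4.01 and 2.61 CPM treated (log2 fold change -1.50 ± 0.27 (SE), edgeR adjusted p = 0.0114). Oas1a stood at 38.1, 29.9 and 32.1 CPM untreated and 43.4, 34.8 and 35.6 CPM treated, and Oasl2 at 12.5, 14.8 and 32.2 CPM untreated and 11.2, 39.7 and 16.0 CPM treated. Oasl2 was high in treated replicate 11 and in untreated replicate 18, and its groups overlapped (log2 fold change 0.02 ± 0.56). Oas1a and Oas1g are near copies, as their promoters above show, and their split is uncertain.

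Mx1, a gene of the dynamin-like GTPase family, rose. It stood at 21.0, 18.1 and 18.5 CPM untreated and 47.5, 36.6 and 30.5 CPM treated, with no overlap (log2 fold change 0.92 ± 0.20 (SE), edgeR adjusted p = 0.0178). Its relative Mx2 did not pass the test (-0.30 ± 0.29).

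Among the nucleotide and RNA enzymes 2 of 5 rose, and Ddx60 had the largest rise of the 42 genes. Ddx60, a helicase that aids RNA sensing, stood at 17.1, 11.6 and 20.3 CPM untreated and 49.2, 48.3 and 35.0 CPM treated (log2 fold change 1.35 ± 0.27 (SE), edgeR adjusted p = 0.0148). Samd9l, a cytoplasmic restriction factor, stood at 468, 341 and 251 CPM untreated and 809.7, 701 and 712 CPM treated (log2 fold change 1.01 ± 0.22 (SE), edgeR adjusted p = 0.0175). Every treated library lay above every untreated one for both genes. Rsad2, which encodes viperin, stood at 12.9, 22.6 and 47.2 CPM untreated and 29.1, 57.7 and 28.6 CPM treated, with wide overlap (0.34 ± 0.52), and Cmpk2, the neighbouring nucleotide kinase gene, was not called (-0.22 ± 0.20).

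No membrane-bound restriction factor was called. Bst2, which encodes tetherin, stood at 56.3, 40.1 and 41.9 CPM untreated and 24.7, 41.1 and 28.1 CPM treated (-0.64 ± 0.22, edgeR adjusted p = 0.0664). Ifitm3, which blocks viral entry from endosomes, stood at 45.3, 36.3 and 66.7 CPM untreated and 23.2, 56.1 and 27.1 CPM treated (-0.60 ± 0.39). Rtp4 stood at 47.1, 26.8 and 39.1 CPM untreated and 60.9, 61.3 and 49.7 CPM treated (0.53 ± 0.22, adjusted p = 0.118). Bst2 and Ifitm3 overlapped between groups, and Rtp4 did not.

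Of the 10 remaining induced proteins, Ifi44 rose and Ifi35, Lgals3bp and Tor3a fell. Ifi44 stood at 6.94, 4.81 and 5.95 CPM untreated and 16.4, 13.02 and 11.7 CPM treated (log2 fold change 1.15 ± 0.24 (SE), edgeR adjusted p = 0.0152). Lgals3bp, a secreted glycoprotein that binds galectin-3, stood at 74.3, 73.1 and 99.2 CPM untreated and 59.2, 48.9 and 45.9 CPM treated (log2 fold change -0.77 ± 0.22 (SE), edgeR adjusted p = 0.0378). Ifi27l2a, a small mitochondrial protein, stood at 123, 96.6 and 75.1 CPM untreated and 70.9, 103 and 56.1 CPM treated and overlapped between groups (-0.42 ± 0.25). Per length, in the FPKM values of the authors, Ifi27l2a had the highest level of the 42 genes in untreated CD3-CD8- libraries, at 344 ± 107 FPKM (SD, n = 3), before Sp100 at 189 ± 42.1, and Mx2 the lowest, at 1.43 ± 0.147. Parp9, Dtx3l and Parp14, which form or adjoin an ADP-ribosylation complex, all had fold changes above 0 (0.35 to 0.49) and none was called.

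**Figure D4:**
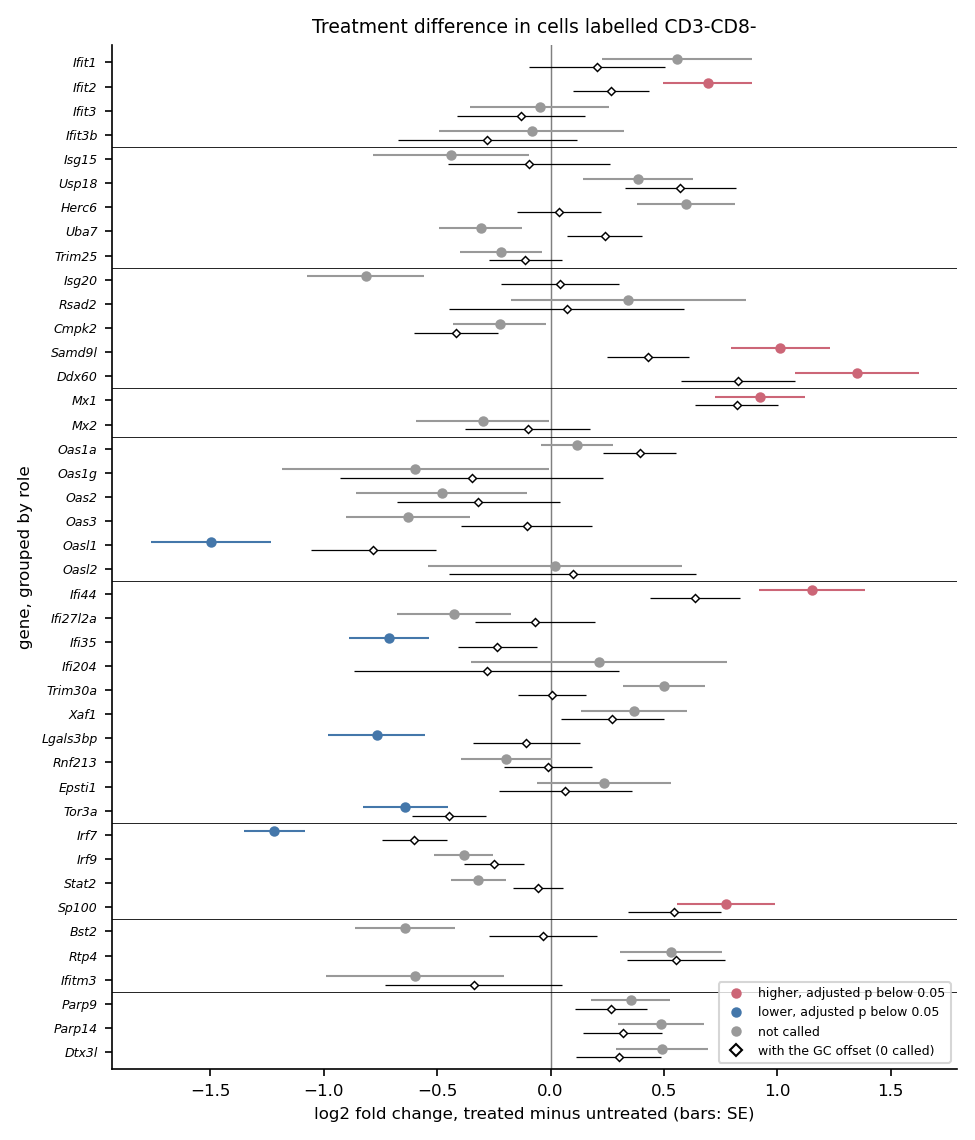
Log2 fold change, treated minus untreated, with its SE on the horizontal axis for each of the 42 genes (vertical axis, grouped by role) in CD3-CD8- cells; circles are the fit without and diamonds the fit with the offset for base composition, and red and blue circles were called higher and lower. All 11 called genes keep their sign with the offset, and none of the 42 is called with it.

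With 1 library left out at a time, 1 to 9 genes were called: 1 call without untreated replicate 5, 2 without treated replicate 2 and 5 without treated replicate 19. A fit of all 18 libraries called 1 (0.577% of all genes), DESeq2 13 (11.5% of 34093 genes, without the filter) and limma voom 23 (46.4%), and the 11 were among the calls of each of the last 2. Without the filter on low counts 9 were higher and 2 lower (9.91% of all genes called, 1676 higher and 1705 lower), and with a stricter one 7 were higher and 8 lower. The balance of directions differed between these fits, and it did so among all genes too, with 1407 higher and 2115 lower in the main fit. For the stricter filter and the left-out libraries no share over all genes was recorded.

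Around these genes, no type I interferon gene reached the filter on low counts. The 18 listed interferon genes summed to 0 to 1.29 CPM in any library. Of 5 receptor and signalling genes, Tyk2 fell in CD3-CD8- cells (-0.73 ± 0.17 (SE), edgeR adjusted p = 0.0211) and none rose, and of 6 negative regulators Ptpn6, which encodes the phosphatase SHP-1, fell (-1.18 ± 0.16 (SE), edgeR adjusted p = 0.00860). Among 5 other IRF genes, Irf1 rose (0.72 ± 0.19 (SE), edgeR adjusted p = 0.0302), while Irf5 (-1.32 ± 0.24 (SE), edgeR adjusted p = 0.0116) and Irf8 (-0.87 ± 0.26 (SE), edgeR adjusted p = 0.0428), which macrophages and B cells express, fell. Of 45 further interferon-stimulated genes tested, 9 rose and 8 fell. The largest rises were those of Phf11a (1.19 ± 0.19), Ifih1, which encodes MDA5 (1.01 ± 0.22), and Nmi (0.86 ± 0.21), and the largest falls those of Helz2 (-1.25 ± 0.17), Pml (-1.01 ± 0.16) and Dhx58 (-0.99 ± 0.19). Of 17 genes induced by interferon-gamma, Iigp1 (1.85 ± 0.32), Irf1 and Gbp5 (0.69 ± 0.19) rose and Ciita, the activator of MHC class II genes, fell (-1.52 ± 0.16). In both T cell fractions none of the genes of these lists was called. With the offset for base composition in CD3-CD8- cells Irf1 (1.07 ± 0.19, edgeR adjusted p = 0.0378), Phf11a (0.96 ± 0.16, adjusted p = 0.0361) and Ciita (-0.92 ± 0.14, adjusted p = 0.0340) were the ones still called in these lists.

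In CD3+CD8+ cells no gene of the set was called under treatment. Of 41 tested (Oas1g did not pass the filter), 0 passed, as did 0 of all 10654 genes tested (0%). At an unadjusted p below 0.05 there were 2 of the 41 and 624 of all genes; DESeq2 called 0 and limma voom 1, Oasl2 (1.85% of all genes). The median log2 fold change was -0.18, against -0.03 over all genes, and 11 of 41 were above 0. This direction depended on the scale: in log2(FPKM + 1) the median was 1.62 and 13 of the 16 genes given in every library turned from below to above 0, none called, such as Oasl2 at 0.51 and Ifi27l2a at 1.39. The 3 of smallest p were Oasl2, Ifi27l2a and Mx2. Values follow for untreated replicates 1, 5 and 18 and treated replicates 11, 2 and 19, of which untreated 1 and 18 are rich in ribosomal counts. Oasl2 stood at 29.9, 10.8 and 34.1 CPM untreated and 12.6, 7.32 and 5.76 CPM treated (log2 fold change -1.59 ± 0.54 (SE), edgeR adjusted p = 0.674), Ifi27l2a at 65.9, 70.3 and 35.9 CPM untreated and 32.9, 44.3 and 35.0 CPM treated (log2 fold change -0.75 ± 0.31 (SE), edgeR adjusted p = 0.758), and Mx2 at 2.40, 4.05 and 7.19 CPM untreated and 2.36, 2.14 and 1.92 CPM treated (log2 fold change -1.10 ± 0.56 (SE), edgeR adjusted p = 0.981). Only for Mx2 did the groups not overlap among these 3, at levels of a few CPM.

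The signalling factors overlapped between untreated and treated CD3+CD8+ cells. Irf7 stood at 33.5, 48.3 and 30.5 CPM untreated and 20.2, 30.5 and 31.3 CPM treated, Irf9 at 74.3, 79.5 and 46.7 CPM untreated and 58.4, 80.5 and 59.9 CPM treated and Stat2 at 24.0, 36.4 and 50.3 CPM untreated and 35.4, 37.5 and 41.0 CPM treated. Isg15 stood at 5.99, 22.9 and 5.39 CPM untreated and 9.61, 12.8 and 11.9 CPM treated and Usp18 at 20.4, 35.4 and 7.19 CPM untreated and 24.3, 39.1 and 19.2 CPM treated, with untreated replicate 5 the highest of its group for both. Ifit1 stood at 44.3, 42.5 and 28.7 CPM untreated and 59.2, 44.4 and 15.2 CPM treated and Ifit3 at 47.9, 63.2 and 52.1 CPM untreated and 54.3, 41.8 and 17.4 CPM treated, and treated replicate 19 was the lowest of all 6 for both. Rsad2 was lowest in that library too, at 22.8, 18.5 and 57.5 CPM untreated and 57.0, 32.8 and 12.6 CPM treated. Mx1 was nearly level, at 41.9, 37.7 and 39.5 CPM untreated and 43.5, 46.2 and 33.0 CPM treated, and Oas1a ran at 10.8, 19.8 and 5.39 CPM untreated and 13.8, 26.6 and 31.1 CPM treated. In the membrane and secreted proteins untreated replicate 5 was the highest for Bst2 and Lgals3bp. Bst2 stood at 38.3, 93.6 and 41.3 CPM untreated and 38.3, 48.0 and 44.9 CPM treated, Rtp4 at 45.5, 40.9 and 43.1 CPM untreated and 42.2, 40.3 and 28.5 CPM treated and Lgals3bp at 32.3, 65.2 and 27.0 CPM untreated and 33.9, 45.0 and 63.6 CPM treated. Ifitm3 was low, at 3.59, 4.05 and 17.97 CPM untreated and 2.19, 0.892 and 5.61 CPM treated, with untreated replicate 18 the highest. None of these genes left the range of the other group as a whole. Once both ribosome-rich libraries are dropped, 1 untreated library is left, assumed to vary like the treated ones, and 0 genes of the set were called.

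In CD3+CD8- cells the result was the same count: 0 of 42 genes and 0 of all 11197 tested (0%). At an unadjusted p below 0.05 there were 3 of the 42 and 198 of all genes, and DESeq2 and limma voom each called 0. The median log2 fold change was -0.28, against -0.02 over all genes, with 7 of 42 above 0. Values follow for untreated replicates 5, 18 and 6 and treated replicates 11, 2 and 19. Of the 3 genes of smallest p, Irf7 stood at 54.0, 68.5 and 54.4 CPM untreated and 31.6, 34.6 and 44.2 CPM treated (log2 fold change -0.68 ± 0.27 (SE), edgeR adjusted p = 0.9998), Mx1 at 43.8, 39.8 and 31.0 CPM untreated and 30.6, 21.0 and 20.7 CPM treated (log2 fold change -0.69 ± 0.29 (SE), edgeR adjusted p = 0.9998) and Oas3 at 41.0, 49.2 and 60.0 CPM untreated and 28.6, 33.0 and 33.7 CPM treated (log2 fold change -0.65 ± 0.28 (SE), edgeR adjusted p = 0.9998). All untreated libraries lay above all treated ones for each of these 3, and no call follows from it at this number of libraries.

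The other genes given here overlapped between untreated and treated CD3+CD8- cells, and the spread within the untreated group was large. Ifit1 stood at 22.4, 108 and 37.3 CPM untreated and 60.9, 31.7 and 23.8 CPM treated and Ifit3 at 26.9, 99.9 and 34.9 CPM untreated and 52.3, 29.8 and 23.6 CPM treated. Rsad2 stood at 32.8, 154 and 83.4 CPM untreated and 98.1, 71.5 and 34.2 CPM treated and Oasl2 at 64.5, 149.6 and 34.9 CPM untreated and 75.7, 90.2 and 72.1 CPM treated. In these 4 genes untreated replicate 18 was the highest of the 6 libraries. Isg15 stood at 12.2, 27.5 and 42.9 CPM untreated and 20.7, 18.8 and 14.5 CPM treated and Usp18 at 18.2, 23.3 and 38.1 CPM untreated and 21.9, 26.2 and 20.2 CPM treated, where untreated replicate 6 was the highest. Irf9 stood at 70.9, 84.0 and 67.9 CPM untreated and 68.1, 55.3 and 77.3 CPM treated, Stat2 at 59.5, 36.6 and 33.8 CPM untreated and 32.3, 30.4 and 49.1 CPM treated and Oas1a at 22.8, 18.6 and 40.1 CPM untreated and 23.2, 19.7 and 39.0 CPM treated, each with treated values inside or around the untreated range. Bst2 stood at 48.8, 80.6 and 58.0 CPM untreated and 42.7, 21.7 and 62.7 CPM treated, Rtp4 at 36.7, 112 and 42.9 CPM untreated and 67.8, 37.8 and 52.5 CPM treated and Ifitm3 at 94.7, 77.7 and 53.2 CPM untreated and 58.9, 45.3 and 71.6 CPM treated. Ifi27l2a stood at 44.6, 103 and 106 CPM untreated and 72.5, 51.4 and 67.2 CPM treated and Lgals3bp at 53.7, 42.6 and 81.4 CPM untreated and 36.2, 28.8 and 61.9 CPM treated. Without treated replicate 2, rich in ribosomal counts, and untreated replicate 6, whose Cd8a goes against its label, 0 genes were called as well.

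Whether treatment acted differently between fractions was tested in 1 fit of all 18 libraries. None of the 42 genes was called in any of the 3 differences, nor was any of the 13181 genes tested (0% in each); at an unadjusted p below 0.05 there were 0, 2 and 2 of the 42. Mx1 had the smallest p in all 3. Its log2 treatment effect in CD3+CD8- cells minus that in CD3-CD8- cells was -1.63 ± 0.32 (SE, edgeR adjusted p = 0.477), and that in CD3+CD8+ cells minus that in CD3-CD8- cells was -0.96 ± 0.32 (adjusted p = 0.844). DESeq2 called the first of these (adjusted p = 0.0105) and limma voom called Samd9l in the second (adjusted p = 0.0438). The difference for Irf7 between CD3+CD8+ and CD3-CD8- cells was 0.64 ± 0.31, so its fall was not shown to be particular to CD3-CD8- cells.

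Few genes of the set differed in level between the sorted fractions, and Ifitm3 had the largest difference between CD3+CD8+ and the other fractions. In untreated mice CD3+CD8+ libraries had less Ifitm3 and Oas2 than CD3+CD8- libraries. Ifitm3 stood at 8.54 ± 8.17 against 75.2 ± 20.8 CPM (log2 fold change -3.54 ± 0.67 (SE), edgeR adjusted p = 0.0201) and Oas2 at 5.49 ± 3.31 against 23.9 ± 11.8 CPM (log2 fold change -2.25 ± 0.54 (SE), edgeR adjusted p = 0.0464), each mean ± SD with n = 3. Of all genes 0.182% were higher and 1.4% lower. Both calls ended without the libraries rich in ribosomal counts, under limma voom, and without CD3+CD8+ replicate 1 or 5 or CD3+CD8- replicate 5 or 18, and both held with the rich libraries and CD3+CD8- replicate 6 left out together.

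Against CD3-CD8- cells, untreated CD3+CD8+ libraries had more Mx1 and Herc6 and less Ifitm3, 2 higher and 1 lower of 42, with 2.25% of all genes higher and 2.31% lower. Mx1 stood at 39.7 ± 2.14 against 19.2 ± 1.60 CPM (log2 fold change 1.12 ± 0.23 (SE), edgeR adjusted p = 0.0168). Herc6 stood at 54.6 ± 9.70 against 27.0 ± 5.86 CPM (log2 fold change 1.08 ± 0.28 (SE), edgeR adjusted p = 0.0408). Ifitm3 was lower by the same comparison (log2 fold change -2.85 ± 0.66 (SE), edgeR adjusted p = 0.0255). Without the 3 libraries rich in ribosomal counts 1 of the 42 was called, Ifitm3, and with the offset for base composition Herc6 came to 0.51 ± 0.18 (SE), edgeR adjusted p = 0.111. With the replicate number as a block, which was taken to pair the libraries of this comparison, 10 were called (7 higher and 3 lower, 11.7% of all genes). With the offset as well 4 were called (8.63% of all genes). The 10 were Mx1, Herc6, Ifitm3, Ifit2, Oas1a, Ifi204, Trim30a, Parp9, Dtx3l and Ddx60. With 1 library left out there were 0 to 5 calls: 0 without CD3+CD8+ replicate 1 or CD3-CD8- replicate 5 or 18, 1 without CD3-CD8- replicate 1 and 5 without CD3+CD8+ replicate 5.

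Untreated CD3+CD8- libraries had more Mx1, Oas3 and Ddx60 than CD3-CD8- libraries. Mx1 stood at 38.2 ± 6.54 CPM (log2 fold change 1.08 ± 0.22 (SE), edgeR adjusted p = 0.0155). Oas3 stood at 50.1 ± 9.50 against 24.2 ± 3.85 CPM (log2 fold change 1.12 ± 0.28 (SE), edgeR adjusted p = 0.0383), and Ddx60 at 55.8 ± 33.5 against 16.4 ± 4.38 CPM (log2 fold change 1.83 ± 0.48 (SE), edgeR adjusted p = 0.0466). Of all genes 1.71% were higher and 1.46% lower. The median log2 difference was 0.50 over the 42 genes and 0.02 over all genes, with 31 of 42 above 0. Transcript G and C content and the log2 difference had Pearson's r = -0.54 over the 42 genes here and also between untreated CD3+CD8+ and CD3-CD8- cells; with the offset for base composition Mx1 was called in both, and Oas3 and Ddx60 here. With CD3+CD8- replicate 5 or 18 or any of the CD3-CD8- replicates left out, no gene of the 42 was called, and Ddx60 came to 1.25 without CD3+CD8- replicate 18; without CD3+CD8- replicate 6, which goes against its label, 5 were called.

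In treated mice CD3+CD8+ libraries had less of 5 genes than CD3+CD8- libraries: Ifitm3, Oas1g, Ifi204, Oasl2 and Oas2. Of all genes 0.516% were higher and 5.44% lower. Ifitm3 stood at 2.90 ± 2.44 against 58.6 ± 13.2 CPM (log2 fold change -4.22 ± 0.61 (SE), edgeR adjusted p = 0.000983). Oasl2 stood at 8.57 ± 3.62 against 79.3 ± 9.61 CPM (log2 fold change -3.31 ± 0.64 (SE), edgeR adjusted p = 0.00432), and Oas2 at 2.66 ± 0.460 against 19.4 ± 5.43 CPM (log2 fold change -2.92 ± 0.49 (SE), edgeR adjusted p = 0.00193). Ifi204, a DNA sensor of the AIM2-like family, stood at 12.99, 5.35 and 3.37 CPM in CD3+CD8+ replicates 11, 2 and 19 and 118, 52.1 and 46.6 CPM in CD3+CD8- replicates 11, 2 and 19 (log2 fold change -3.40 ± 0.76 (SE), edgeR adjusted p = 0.0118). Oas1g was read at 0.337, 0 and 0.326 against 2.71, 3.88 and 2.67 CPM (log2 fold change -3.59 ± 0.96 (SE), edgeR adjusted p = 0.0331), at or near a count of 0 in CD3+CD8+ cells, and the fitted fold depends on the prior count. The calls of Ifitm3, Oasl2 and Oas2 held under every alternative run, and that of Ifi204 ended without CD3+CD8+ replicate 2 or 19. The call of Oas1g ended with any of the 6 libraries left out, and 3 genes were called without CD3+CD8+ replicate 2.

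Against treated CD3-CD8- cells, Ifitm3 alone was lower in CD3+CD8+ cells (log2 fold change -3.40 ± 0.59 (SE), edgeR adjusted p = 0.00365; 0.698% of all genes higher, 4.24% lower), and this call held under every alternative run. With the replicate number as a block 2 were called (7.67% of all genes), Ifitm3 and Ifi204 (-2.43 ± 0.28 (SE), edgeR adjusted p = 0.000378). There were 2 calls without CD3+CD8+ replicate 11 or without CD3-CD8- replicate 2 or 19. Between treated CD3+CD8- and CD3-CD8- libraries 0 of 42 genes and 1.23% of all genes were called; 6 of the 42 and 1807 of all genes had an unadjusted p below 0.05, and DESeq2 and limma voom each called 3 (1.66% and 7.87% of all genes). The genes of smallest p were Oas3 (log2 fold change 1.08 ± 0.28 (SE), edgeR adjusted p = 0.0754), Oas2 and Oasl2. Oas3 stood at 31.8 ± 2.77 against 16.4 ± 5.15 CPM, Oas2 at 19.4 ± 5.43 against 7.23 ± 3.45 CPM, and Oasl2 at 79.3 ± 9.61 against 22.3 ± 15.2 CPM, without overlap for any of the 3. With the replicate number as a block 4 were called, all higher in CD3+CD8- cells (4.86% of all genes): Oas3 (1.15 ± 0.23 (SE), edgeR adjusted p = 0.0176), Oas2 (1.62 ± 0.40, adjusted p = 0.0366), Oasl2 (2.18 ± 0.40, adjusted p = 0.0118) and Ifi204 (1.06 ± 0.25, adjusted p = 0.0335).

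Summed neutrophil and monocyte markers were lower in CD3+CD8+ than in CD3+CD8- libraries, as Ifitm3 was, but not throughout against CD3-CD8- libraries. Summed neutrophil markers (10 genes) ran from 3201 to 15475 CPM in untreated and 11669 to 33934 CPM in treated CD3+CD8- libraries, against 44.3 to 845 and 96.5 to 697 CPM in CD3+CD8+ libraries. Monocyte markers (7 genes) ran from 1139 to 1671 and 962 to 2808 CPM in CD3+CD8- libraries, against 654 to 737 and 319 to 949 CPM in CD3+CD8+ libraries. In CD3-CD8- libraries neutrophil markers ran from 144 to 868 CPM untreated and 631 to 20789 CPM treated, and monocyte markers from 525 to 620 and 395 to 1178 CPM. Untreated monocyte markers were lower there than in CD3+CD8+ libraries, and Ifitm3 was higher. Other lists differed in direction between untreated CD3-CD8- and CD3+CD8+ libraries. Kupffer cell markers (8 genes) ran from 384 to 1121 against 16.1 to 392 CPM. Conventional dendritic cell markers (6 genes) ran from 145 to 200 against 84.5 to 147 CPM. Plasmacytoid dendritic cell markers (9 genes) ran from 278 to 406 against 548 to 846 CPM. No gene of these lists was at 0 in all libraries of a group. The part of these cells in the levels of Ifitm3, Oasl2, Oas2 and Ifi204 was not tested.

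**Figure D5:**
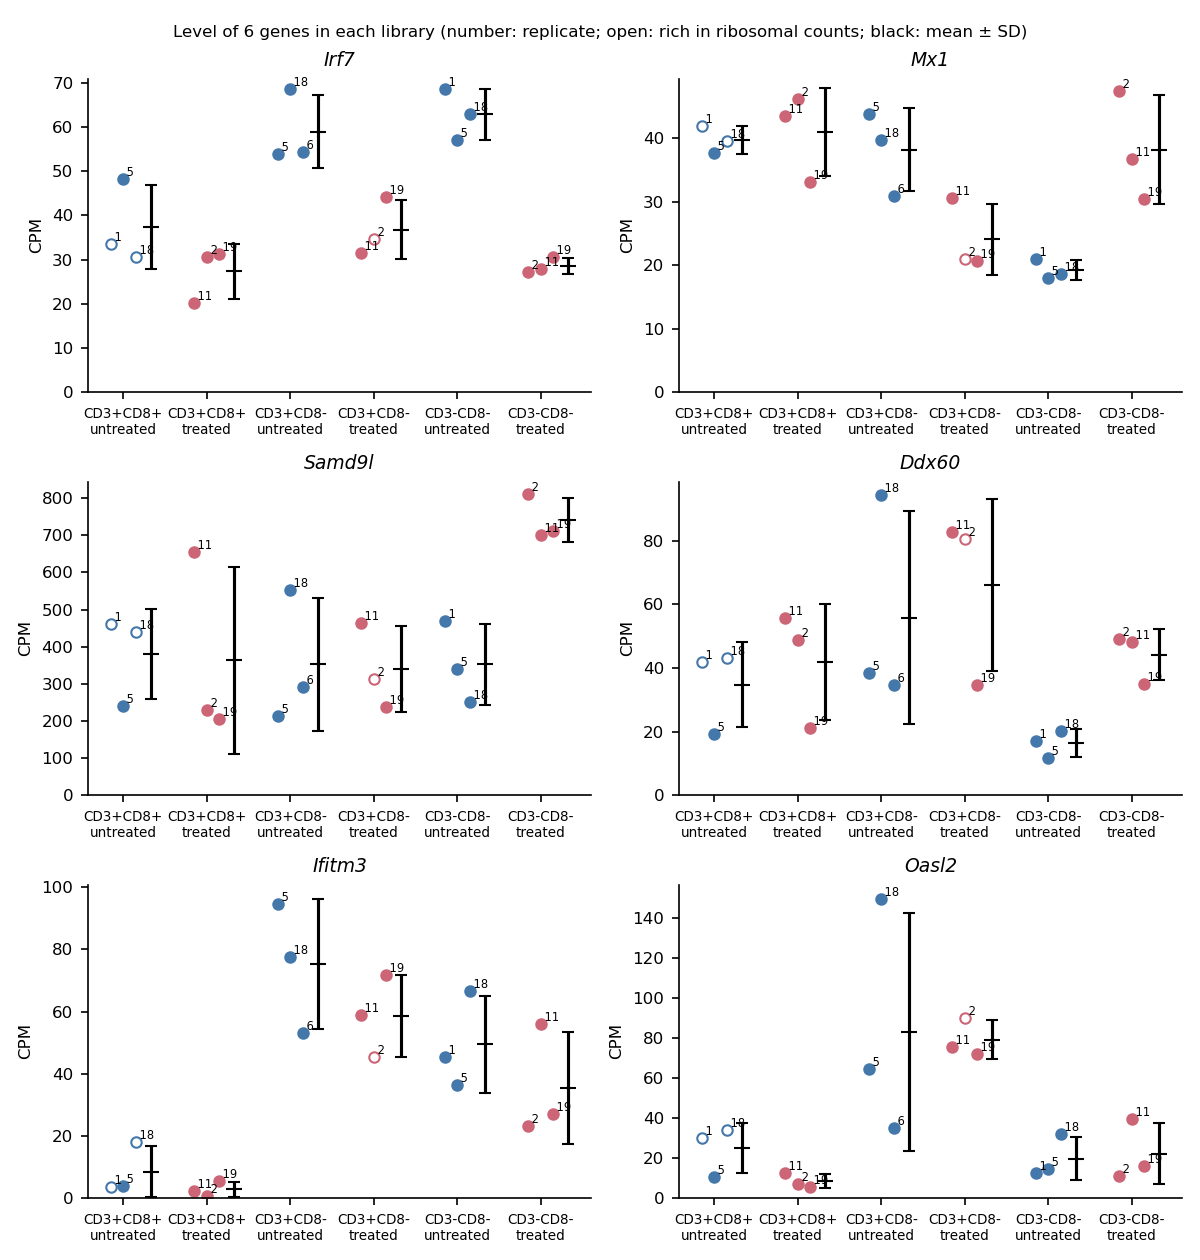
CPM of Irf7, Mx1, Samd9l, Ddx60, Ifitm3 and Oasl2 (vertical axes from 0) in each library, by group; numbers are replicates, open points the libraries rich in ribosomal counts, and black bars the mean ± SD of 3 libraries. Irf7 sits at 27.2 to 30.6 CPM in treated and 57.1 to 68.5 CPM in untreated CD3-CD8- cells, and Ifitm3 is lower in every CD3+CD8+ library than in any CD3+CD8- or CD3-CD8- library.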

How the data were processed

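RNA of sorted CD45+ liver cells was sequenced from 18 libraries in 6 groups of 3. The deposited values are counts per gene and FPKM per gene made by the authors; HTSeq 0.13.5, Cufflinks 2.2.1, DESeq2 3.20 and Trim Galore 0.6.7 are named in the submitters' processing notes, and the genome build of the counting is not given in the sources used here. Of the value columns, 18 were matched to samples by name and 22 were not used. Counts were tested in R 4.3.3 with edgeR 4.0.16 (filterByExpr, TMM scaling, quasi-likelihood F-test, Benjamini-Hochberg adjustment over all genes tested). Treatment was fitted within each fraction, and fractions and differences of treatment effects in all 18 libraries. CPM levels use the TMM scaling of all 18 libraries, and the SE of a log2 fold change is its size divided by the root of F. DESeq2 1.42.0, limma 3.58.1 (voom, and log2(FPKM + 1)), other scalings and filters, an offset for base composition, left-out libraries and a block were alternatives, and 1 of them (the libraries rich in ribosomal counts left out together with untreated CD3+CD8- replicate 6) was chosen after seeing the data. Symbols came from the deposited FPKM table. The members and lists were chosen with earlier results of these data known. Values in every library are given for 16 fixed genes and for the called genes with the 5 largest changes in a contrast (with none called, the 3 of smallest p). The fits were tested on simulated data. Deviations from the group means were correlated between libraries that share a number, and numbers were taken to pair 2 groups where all of 3 pairs were over 0.1: CD3+CD8+ with CD3-CD8- untreated (0.133 to 0.410) and treated (0.218 to 0.377), and CD3+CD8- with CD3-CD8- treated (0.132 to 0.373). CD3+CD8+ with CD3+CD8- did not meet this (lowest -0.128 untreated and -0.0570 treated), and untreated CD3+CD8- with CD3-CD8- share only 2 numbers (0.407 and 0.513). Of 38 pairs of libraries with different numbers, 7 were also over 0.1, up to 0.417, so this limit does not separate shared from different numbers. The numbers are those of the library names, and the labels do not state a pairing. Tests are reported without the block, and blocked counts beside them in the 3 comparisons taken as paired. The largest blocked count, from a comparison not taken as paired, is given as well.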

Additional observations from a re-analysis of the deposited data

How the results depend on the processing

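Depth limits the 3 libraries rich in ribosomal counts, and 3 libraries a group limit every test. Counts of called genes are given by setting, as main value and then alternative. A percentage in brackets is the share of all tested genes that the same fit called, given where it was recorded. Under treatment in CD3-CD8- cells 11 became 23 with limma voom (46.4%), 0 with the offset for base composition (3.69%) and 1 in a fit of all 18 libraries (0.577%). It became 0 with log2(FPKM + 1), and 1 to 9 with 1 library left out. In CD3+CD8+ cells 0 became 1 with limma voom (1.85%). The offset acts on base composition by construction; the cause of the other changes was not tested.

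CD3+CD8+ minus CD3+CD8- untreated (2): 5 without a filter (1.95%), 1 with a stricter one and 0 with limma voom (0.0683%). There were 0 without the rich libraries, 0 with only the groups compared, and 0 to 3 with libraries left out. CD3+CD8+ minus CD3-CD8- untreated (3): 5 with DESeq2 (3.14%) and 19 with limma voom (29.0%). There were 1 without the rich libraries, 0 with only the groups compared, and 0 to 5 with a library left out. CD3+CD8- minus CD3-CD8- untreated (3): 7 without a filter (2.17%), 5 with DESeq2 (1.77%), 11 with limma voom (13.01%) and 5 with the offset (4.39%). There were 0 with only the groups compared, 0 to 5 with a library left out, and 6 without the rich libraries and replicate 6 (7.49%). CD3+CD8+ minus CD3+CD8- treated (5): 8 with limma voom (11.1%), 8 with the offset (7.23%), and 3 to 5 with a library left out. CD3+CD8+ minus CD3-CD8- treated (1): 4 without a filter (2.56%), 4 with DESeq2 (2.21%), 15 with limma voom (22.3%) and 3 with the offset (5.79%). There were 2 without the rich libraries, 1 to 2 with a library left out, and 3 without the rich libraries and untreated CD3+CD8- replicate 6 (5.55%). CD3+CD8- minus CD3-CD8- treated (0): 2 without a filter (2.70%), 3 with DESeq2 (1.66%) and 3 with limma voom (7.87%). Differences of treatment effects (0): 1 with limma voom for CD3+CD8+ minus CD3-CD8- (1.78%), and 1 with DESeq2 for CD3+CD8- minus CD3-CD8- (0.0654%). The treated minus untreated mean level in log2(FPKM + 1) was 1.45 in CD3+CD8+ cells (main -0.14) and -0.84 in CD3+CD8- cells (main -0.22).

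Where numbers were taken to pair the libraries, the blocked results stand in the report. Counts with the number as a replicate block, alone and then with the offset, follow in the order of the 6 fraction contrasts above, with shares of all genes. They were 4 (3.30%) and 5 (4.51%), 10 (11.7%) and 4 (8.63%), and 13 (10.3%) and 9 (9.04%) in untreated mice. In treated mice they were 8 (8.44%) and 10 (9.92%), 2 (7.67%) and 4 (8.94%), and 4 (4.86%) and 6 (6.76%). The block changed no call in the differences of treatment effects. Among the libraries of other fractions under the same treatment, 15 of 18 libraries correlated best with one of their own number. Untreated CD3+CD8- replicate 6 has no such library and could not be among them.

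Of 1504 values of named genes under the alternatives, 91 had the opposite sign to the reported one, and 0 of these were called in the reported fit or in the alternative. They are log2 fold changes, over 28 pairs of a gene and a comparison. Under treatment in CD3+CD8+ cells, with log2(FPKM + 1) the values were Irf7 1.79, Irf9 1.88, Stat2 1.49, Isg15 2.02, Ifit1 1.51, Ifit3 1.22, Oasl2 0.51, Mx1 1.71, Rsad2 1.46, Bst2 1.65, Ifitm3 0.38, Ifi27l2a 1.39, Rtp4 1.70. With limma voom the values were Irf9 0.00022, Stat2 0.042, Isg15 0.29, Rsad2 0.055. With no filter the values were Stat2 0.058, Mx1 0.041, Rsad2 0.12. With DESeq2 the values were Stat2 0.045, Mx1 0.021, Rsad2 0.053. With ribosomal loci removed the values were Stat2 0.010, Rsad2 0.043. With no ribosome-rich libraries the values were Stat2 0.046, Usp18 -0.40, Mx1 0.091, Rsad2 0.83, Lgals3bp -0.46. With a fit of all 18 libraries the values were Stat2 0.015, Rsad2 0.086. With lane as a covariate the value was Stat2 0.0056. With DESeq2 size factors the value was Rsad2 0.0058. With libraries left out in CD3+CD8+ cells, the ranges that crossed 0 were Stat2 -0.25 to 0.23, Isg15 -1.01 to 0.89, Usp18 -0.40 to 0.80, Ifit1 -0.48 to 0.26, Mx1 -0.12 to 0.091, Rsad2 -0.55 to 0.83, Bst2 -1.11 to 0.022, Lgals3bp -0.46 to 0.58. Under treatment in CD3+CD8- cells, with DESeq2 size factors the value was Oas1a 0.0036. With no filter the value was Oas1a 0.022. With DESeq2 the value was Oas1a 0.0085. With limma voom the values were Oas1a 0.14, Oasl2 0.24, Rsad2 0.13, Rtp4 0.047. With the offset the value was Oas1a 0.046. With no ribosome-rich libraries the value was Oas1a 0.076. With a fit of all 18 libraries the value was Oas1a 0.013. With lane as a covariate the value was Oasl2 0.33. With libraries left out in CD3+CD8- cells, the ranges that crossed 0 were Stat2 -0.44 to 0.12, Usp18 -0.45 to 0.16, Ifit1 -0.89 to 0.35, Ifit3 -0.91 to 0.15, Oas1a -0.30 to 0.46, Oasl2 -0.62 to 0.64, Rsad2 -0.75 to 0.24, Rtp4 -0.53 to 0.36. Under treatment in CD3-CD8- cells, with DESeq2 size factors the value was Ifit3 0.0035. With no filter the value was Ifit3 0.087. With DESeq2 the value was Ifit3 0.0070. With log2(FPKM + 1) the values were Oas1a -0.016, Oasl2 -0.040. With limma voom the value was Oasl2 -0.011. With libraries left out in CD3-CD8- cells, the ranges that crossed 0 were Ifit3 -0.35 to 0.20, Oasl2 -0.66 to 0.64, Rsad2 -0.054 to 1.06. With libraries left out in the treatment effect in CD3+CD8+ minus that in CD3+CD8-, the ranges that crossed 0 were Oasl2 -2.12 to 0.15.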
